A study of Mus musculus with 1646 samples.

Results

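Immediate early and stress response genes are a set of 40 genes, among 46517 genes counted in 1646 single cells of the mouse colon. The set was given by symbol, and each symbol matched 1 Ensembl identifier of the GENCODE vM21 annotation (GRCm38). It holds 8 AP-1 and related bZIP factors, 6 zinc finger factors, 3 orphan nuclear receptors, 5 other transcription regulators, 5 feedback inhibitors of signalling, 3 regulators of RNA decay, 5 growth-restraining genes and 5 others. Their levels were set by cluster within each plate, so that differences between cell types could be parted from differences between plates. All 40 had a count in at least 1 cell and all 40 passed the filter on low counts.

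The cells were isolated from male mice of 10 to 20 weeks that carried a fluorescent reporter, in 4 lines on a *C57Bl6/J* background, and each cell was its own SmartSeq2 library (full-length cDNA of 1 sorted cell). PdgfrbGFP gave 761 cells on plates colon_073s, colon_075s, colon_685s and colon_686s, Acta2GFP gave 567 on plates colon_513s and colon_682s, PdgfraGFP gave the cells of plates colon_1075s and colon_439s, and Cspg4dsRED gave 91 on plate colon_516s. In PdgfrbGFP, Acta2GFP and Cspg4dsRED a transgene drives the fluorescent protein from the named promoter, and in PdgfraGFP the protein sits in the *Pdgfra* gene, so each line marks cells that use that promoter and no line is free of a reporter. All tissue was digested with warm enzymes and sorted for CD31-negative cells, and Acta2GFP tissue also received elastase. The authors drew 8 clusters. Clusters 1 (crypt middle), 2 (crypt apex), 5 (crypt base to middle), 6 (crypt middle to apex) and 7 (crypt base) are fibroblasts, and clusters 3 (vascular smooth muscle cells, SMC), 4 (pericytes) and 8 (interstitial SMC) are mural cells.

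The names of the clusters were checked against markers. The summed counts of *Pdgfra*, *Col1a1*, *Dcn* and *Lum* averaged 3614 to 6704 per 500000 in the 5 fibroblast clusters and 285.5 to 1485 in the 3 mural clusters. In cluster 2 the sum came mostly from *Col1a1* (2317) and *Pdgfra* (1025). There *Dcn* (226.8) and *Lum* (67.7) lay below their means in pericytes (931.8 and 107.9), as did *Dcn* in cluster 6 (747.3). Apex markers (*Tnc*, *Il1rl1*, *Ptgs2*, *Bmp7*) reached 3709 in cluster 2 and at most 794 elsewhere. Pericyte markers (*Rgs5*, *Kcnj8*, *Abcc9*, *Cspg4*) averaged 4379 in cluster 4 and 1226 in cluster 3, and smooth muscle markers (*Acta2*, *Myh11*, *Tagln*, *Cnn1*) averaged 6330 in cluster 3 and 9196 in cluster 8, the latter also with 3439 for *Hhip*, *Rgs10* and *Actg2*. A cell had 47598 to 1494292 counts on genes, and the plate medians ran from 113721 (colon_516s) to 725044 (colon_1075s).

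Immediate early genes are transcribed within minutes of a stimulus, without new protein synthesis. Kinase cascades act on factors that already sit at their promoters, among them the serum response factor with its Elk partners, and CREB. Many of the products are transcription factors, such as Fos and Jun, which pair to form AP-1, and others shut the response down, such as the phosphatase Dusp1 or the RNA-destabilizing protein Zfp36. In mesenchymal tissue they are known for responses to growth factors, mechanical load and injury, and warm enzymatic dissociation is known to induce them.

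The promoters of 5 genes are shown because these genes carry the differences below, and because most of them hold letters known from inducible promoters. Each window runs 5′ to 3′ from 250 bases before to 50 bases after the RefSeq start (GRCm38.p6), with the palindromic cyclic AMP response element TGACGTCA and the serum response element (CArG box) in capitals. *Fosb* lies on the minus strand at chr7:19309996-19310295, *Btg2* on the minus strand at chr1:134079106-134079405, *Dusp1* on the minus strand at chr17:26508423-26508722, *Zfp36* on the minus strand at chr7:28379179-28379478, and *Egr2* on the plus strand at chr10:67537619-67537918.
Fosb: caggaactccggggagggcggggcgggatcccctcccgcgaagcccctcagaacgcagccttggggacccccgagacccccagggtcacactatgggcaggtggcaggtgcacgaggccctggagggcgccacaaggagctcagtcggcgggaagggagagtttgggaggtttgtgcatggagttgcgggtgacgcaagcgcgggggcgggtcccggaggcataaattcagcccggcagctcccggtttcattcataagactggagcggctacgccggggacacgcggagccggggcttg
Btg2: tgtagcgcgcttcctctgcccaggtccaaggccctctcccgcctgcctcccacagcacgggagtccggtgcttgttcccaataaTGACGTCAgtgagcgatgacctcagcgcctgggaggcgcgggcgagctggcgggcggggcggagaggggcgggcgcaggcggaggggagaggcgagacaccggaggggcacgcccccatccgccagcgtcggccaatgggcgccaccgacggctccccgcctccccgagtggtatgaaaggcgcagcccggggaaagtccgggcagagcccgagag
Dusp1: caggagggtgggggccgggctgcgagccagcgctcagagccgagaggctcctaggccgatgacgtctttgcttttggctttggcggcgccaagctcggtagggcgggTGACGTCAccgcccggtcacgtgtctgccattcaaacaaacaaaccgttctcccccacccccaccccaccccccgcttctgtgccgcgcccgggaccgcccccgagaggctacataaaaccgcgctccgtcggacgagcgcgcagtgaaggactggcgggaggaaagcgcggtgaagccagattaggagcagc
Zfp36: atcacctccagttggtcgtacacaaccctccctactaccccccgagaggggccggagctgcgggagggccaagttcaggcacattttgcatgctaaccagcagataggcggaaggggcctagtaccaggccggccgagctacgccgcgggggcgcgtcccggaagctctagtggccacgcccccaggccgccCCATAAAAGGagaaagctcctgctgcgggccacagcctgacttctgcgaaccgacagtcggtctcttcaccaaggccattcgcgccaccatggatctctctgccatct
Egr2: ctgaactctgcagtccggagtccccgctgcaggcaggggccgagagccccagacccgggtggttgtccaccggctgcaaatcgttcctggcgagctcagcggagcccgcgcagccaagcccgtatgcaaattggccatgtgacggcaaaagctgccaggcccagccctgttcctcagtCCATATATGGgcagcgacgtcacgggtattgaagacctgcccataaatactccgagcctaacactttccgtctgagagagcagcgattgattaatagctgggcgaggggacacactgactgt
The *Btg2* and *Dusp1* windows hold the cyclic AMP response element upstream of the start. The CArG box starts 58 bases before the start in *Zfp36* and 72 in *Egr2*, and the *Fosb* window holds neither. Both strands were searched in the windows of 33 of the 40 genes. The cyclic AMP response element stood in 3 of 33 (9.09%) against 2.03% of 27025 mouse genes, the CArG box in 2 of 33 (6.06%) against 1.81%, and the AP-1 site TGANTCA in 2 of 33 (6.06%) against 8.97%. TGANTCA is not contained in TGACGTCA. The TATA box letters TATAAA occurred in 11 of 33 (33.3%) against 15.7%. These are matches of letters and not tested sites.

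Levels were expressed as the mean over the cells of a cluster within a plate of log2(counts per 500000 + 1), for the 38 combinations of plate and cluster with at least 10 cells. Averaged over the 40 genes, this level was highest in vascular SMC, at 4.98 ± 0.361 (SD, n = 5 plates), and in apex fibroblasts, at 4.92 ± 1.13 (n = 5). Crypt base to middle fibroblasts followed with 4.15 ± 0.827 (n = 8), crypt base fibroblasts with 3.90 ± 1.07 (n = 5) and interstitial SMC with 3.66 ± 0.31 (n = 2). Crypt middle fibroblasts had 3.36 ± 1.02 (n = 8), pericytes 3.04 ± 0.137 (n = 3) and cluster 6 had 2.63 ± 0.291 (n = 2). Neighbours in this order differed by less than the spread between plates, except pericytes and cluster 6, which came from different plates (2.88 to 3.14 and 2.43 to 2.84). The clusters were averaged over different plates. Plate colon_075s, highest wherever it was measured, entered clusters 1, 2, 5 and 7 (5.42, 6.84, 5.89 and 5.60) and none of the others. The means of these clusters thus hold a plate that the others lack, and the order between both groups is uncertain to that degree. Vascular SMC stood above pericytes in all 3 plates that had both, above interstitial SMC in both plates, and apex fibroblasts stood above the mean of clusters 1, 5 and 7 in the 4 plates that had these and above cluster 1 in colon_1075s, which had no cluster 5 or 7.

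**Figure D1:**
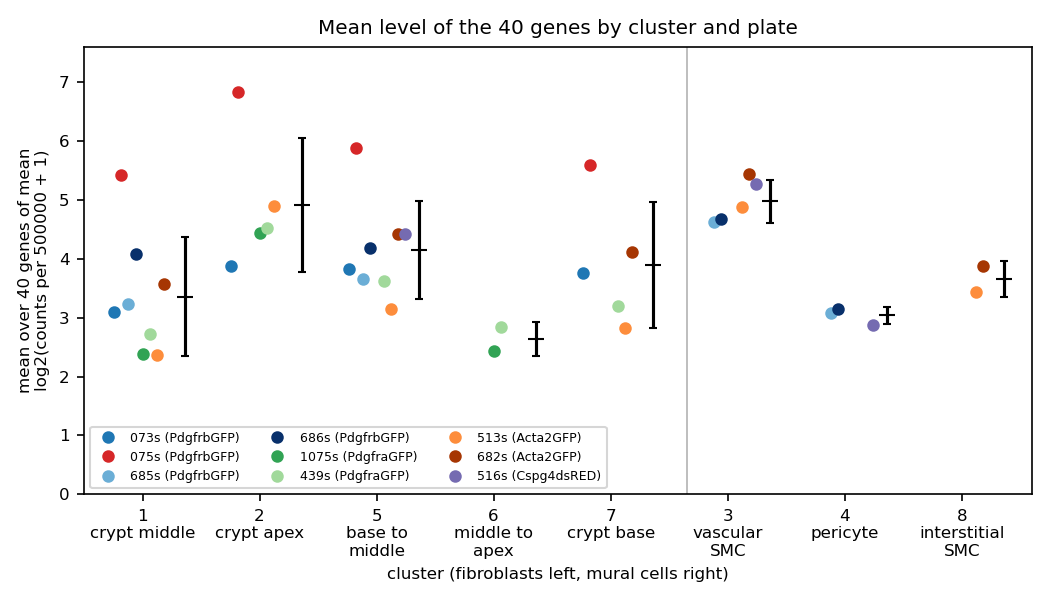
Mean over the 40 genes of the mean log2(counts per 500000 + 1), by cluster (x axis) and plate (points, coloured by plate, with the reporter line in the legend). Black bars give the mean and SD over plates. Vascular SMC and apex fibroblasts lie highest, pericytes and cluster 6 lowest, and plate colon_075s lies above every other plate in clusters 1, 2, 5 and 7.

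Differences between clusters were tested with edgeR's quasi-likelihood test on counts summed per plate and cluster, with the plate as a block and Benjamini-Hochberg adjustment over 18808 genes. Of the 40 genes, 33 differed among the 8 clusters at an adjusted p under 0.05, where 21.7% of all genes tested did. The exceptions were *Egr3*, *Ier5*, *Klf6*, *Maff*, *Myc*, *Nr4a3* and *Sgk1*, with adjusted p from 0.0693 to 0.332. The authors drew the clusters from the same counts, so these tests are not independent of the clusters. The labels name no mouse, so plates of a line may share mice and the p-values may be too small. Calls over sums per line are therefore given beside those over plates.

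**Figure D2:**
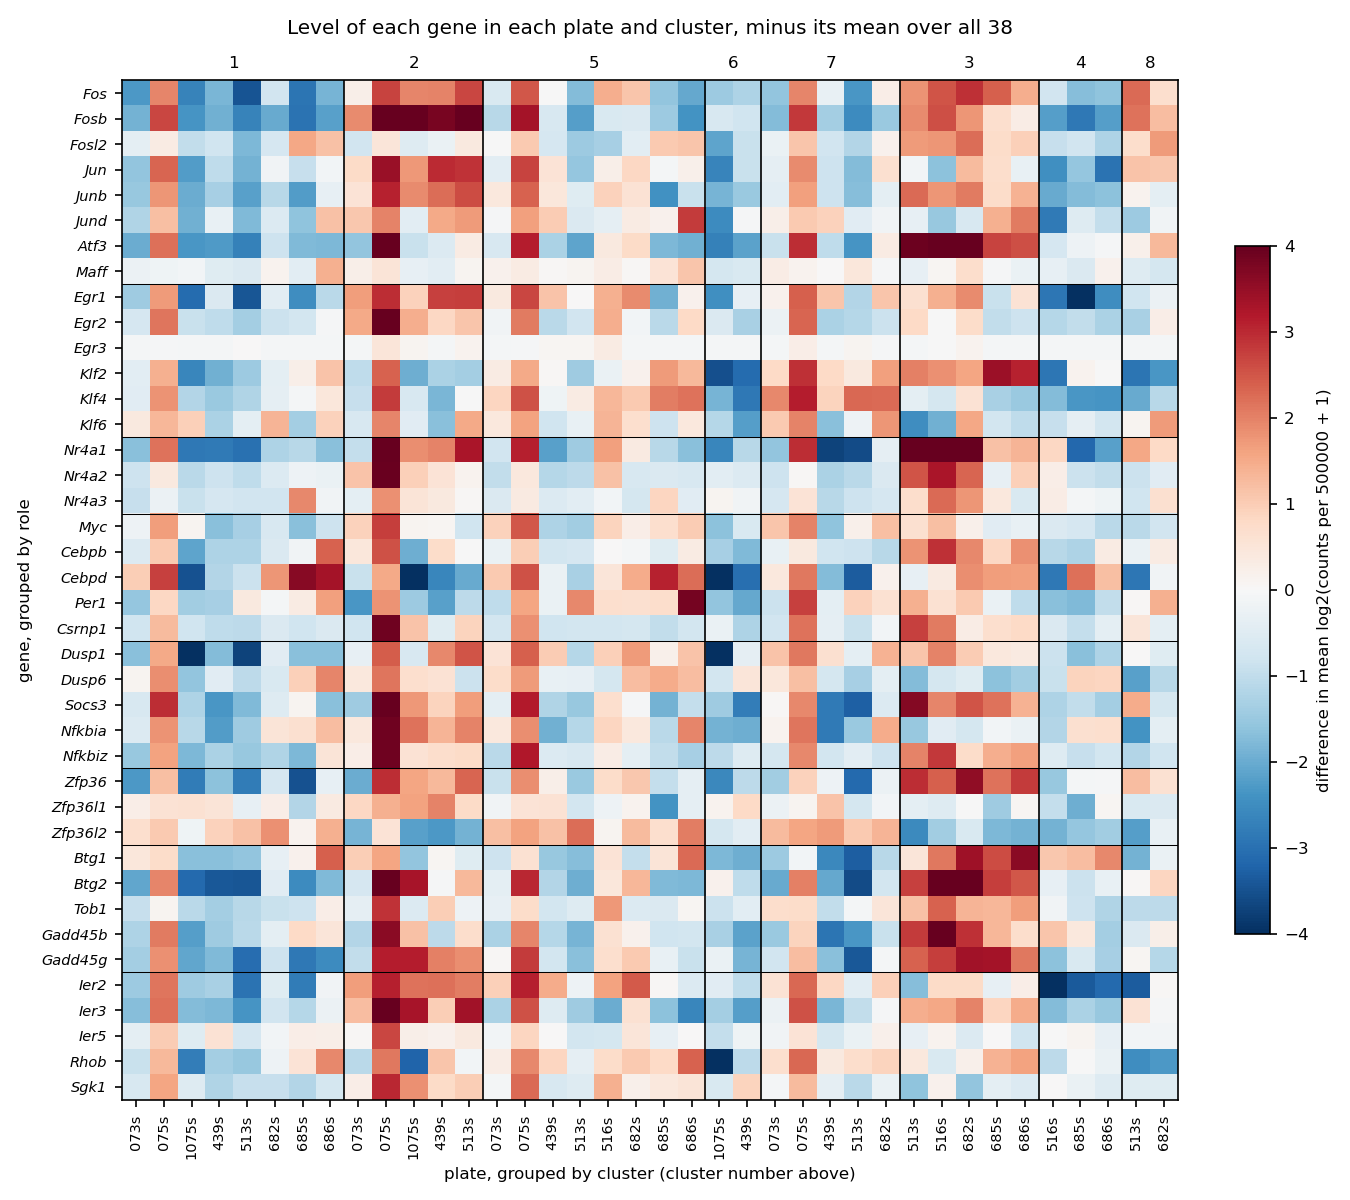
Level of each gene (rows, grouped by role) in each plate and cluster (columns), as the difference from the gene's mean over the 38 combinations, in log2(counts per 500000 + 1). Columns of plate colon_075s are red for most genes, and the blocks of clusters 2 and 3 are red for *Fosb*, *Fos*, *Junb*, *Zfp36* and *Btg2* in most plates, while *Zfp36l2* is blue there except in cluster 2 of colon_075s.

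The first comparison asked how fibroblasts at the crypt apex, which lie under the surface epithelium, differ from fibroblasts deeper in the mucosa. Of the 40 genes, 22 were higher in apex fibroblasts than in the mean of clusters 1, 5 and 7 (4.71% of all genes tested were) and 1 was lower (4.08% were). The median log2 fold change was 1.62 over the 40 genes and -0.15 over all genes. Over line sums, 20 of the 23 calls were also made, in the same direction, and without plate colon_075s 21 genes were higher and 2 lower. Over all plates, apex cells had a median of 261785 counts and 4627 genes. Clusters 1, 5 and 7 had 229006, 267078 and 311916 counts and 5646, 6435 and 6493 genes, and the part of this was not tested.

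*Fosb*, an AP-1 partner of Jun proteins, showed the largest difference. Its level in apex fibroblasts was 5.45 in plate colon_073s, 9.91 in colon_075s, 7.82 in colon_1075s, 7.35 in colon_439s and 8.56 in colon_513s. In crypt middle fibroblasts the 8 plates ranged from 0.61 through a median of 1.47 to 6.24 in plate colon_075s, and no other plate exceeded 1.68. Thus only colon_075s overlapped the apex range, and within colon_075s the apex was still higher. The log2 fold change of *Fosb* was 4.69 ± 0.46 (SE, adjusted p = 2e-08, edgeR), with 5 of 5 plates in that direction. *Fosb* was detected in 80 to 100% of apex cells per plate and in a median of 52.01% of crypt middle cells. After each cell had been thinned to 50000 counts, the medians were 88% and 17.3%.

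*Nr4a2*, an orphan nuclear receptor that acts without a known ligand, had levels of 2.41, 5.22, 2.22, 1.83 and 1.41 in apex fibroblasts of plates colon_073s, colon_075s, colon_1075s, colon_439s and colon_513s. Its highest level was 1.66 in crypt middle fibroblasts, again in colon_075s, and 2.44 in cluster 5, in plate colon_516s, so the ranges overlapped. The fold change of *Nr4a2* was 3.99 ± 0.80 on the log2 scale (adjusted p = 0.000925, edgeR). *Nfkbiz*, an atypical IκB protein that steers NF-κB targets, had 2.18, 5.81, 2.51, 2.64 and 2.69 in the same plates and a median of 0.54 in crypt middle fibroblasts. Crypt middle fibroblasts of colon_075s (3.52) and colon_686s (2.43) overlapped the apex range. The fold change of *Nfkbiz* was 3.72 ± 0.65 (adjusted p = 0.000204, edgeR).

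The other calls at the apex came from 7 of the 8 roles, with none among *Myc*, *Cebpb*, *Cebpd*, *Per1* and *Csrnp1*. Among AP-1 factors *Jun* (2.13), *Fos* (1.83), *Junb* (1.73) and *Jund* (1.15) were higher in log2 fold change, whereas *Atf3*, a stress-induced bZIP repressor, had 1.61 and did not pass. The zinc finger factors *Egr2* (2.91) and *Egr1* (1.66) and the receptor *Nr4a1* (2.77) were higher. All 3 Krüppel-like factors failed the test, with -0.57 for *Klf4*, -0.15 for *Klf2* and 0.53 for *Klf6*. Of the feedback inhibitors, *Socs3* (1.83), which blocks cytokine receptors, *Nfkbia* (1.64), which holds NF-κB in the cytoplasm, and *Dusp1* (1.31), which inactivates MAP kinases, were higher. So were the growth-restraining genes *Btg2* (2.45), *Gadd45b* (2.33), *Gadd45g* (2.07) and *Btg1* (1.33). The remaining ones were *Ier3* (2.75), *Zfp36* (2.23), *Sgk1* (2.03), *Ier2* (1.27) and *Zfp36l1* (0.99).

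The single gene in the opposite direction was *Zfp36l2*, a relative of *Zfp36* in the same family of RNA-destabilizing proteins. Its level in apex fibroblasts was 1.32 in plate colon_073s, 3.74 in colon_075s, 1.01 in colon_1075s, 0.88 in colon_439s and 1.29 in colon_513s. Crypt middle fibroblasts had 2.99 to 4.99 with a median of 4.17, and crypt base fibroblasts had 4.24 to 4.88. Apart from colon_075s, every apex value lay below every value of those clusters. The log2 fold change of *Zfp36l2* was -2.68 ± 0.50 (adjusted p = 0.000408, edgeR), lower in 5 of 5 plates. The other members of this family in the set, *Zfp36* and *Zfp36l1*, were higher at the apex.

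**Figure D3:**
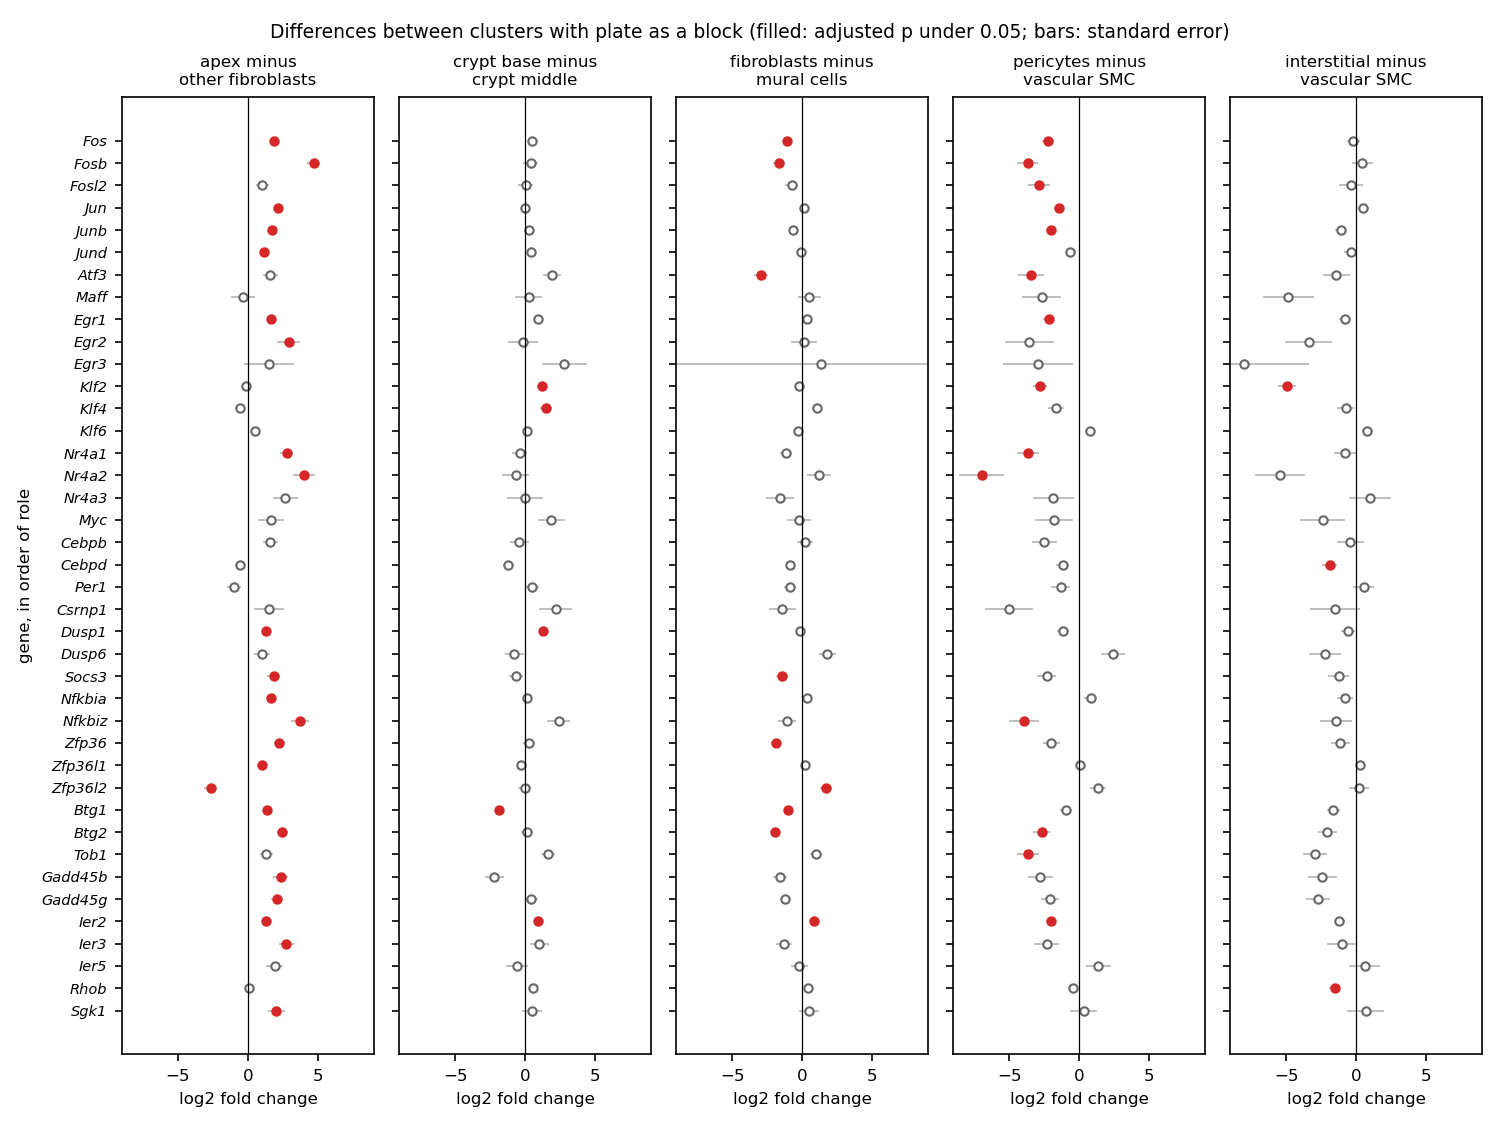
Log2 fold change (x axis) of the 40 genes (y axis, in order of role) in 5 comparisons of clusters from the edgeR fit with plate as a block, with bars of 1 standard error. The bar of *Egr3* runs past the axis in the third panel. Filled points passed an adjusted p of 0.05. Filled points lie to the right of 0 at the apex except *Zfp36l2*, and to the left of 0 in pericytes.

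The second comparison set fibroblasts at the crypt base against those at the crypt middle. At the base 4 of the 40 genes were higher, against 1.08% of all genes, and 1 was lower, against 1.77%. *Klf4*, a Krüppel-like factor linked to growth arrest, had levels of 5.30, 6.53, 4.27, 5.68 and 5.64 in crypt base fibroblasts of plates colon_073s, colon_075s, colon_439s, colon_513s and colon_682s. Across 8 plates its level in crypt middle fibroblasts ran from 1.90 through 2.98 to 5.17, so the ranges overlapped, but in each of the 5 plates with both the base was higher. *Klf2*, a flow- and stress-responsive relative, had 5.01, 7.14, 5.02, 4.61 and 5.86 at the base in the same plates, against 1.61 to 5.64 at the middle. *Dusp1* had 8.62, 9.60, 8.11, 7.09 and 8.87, against 3.39 to 9.0.

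The log2 fold changes at the crypt base were 1.495 ± 0.40 for *Klf4* (adjusted p = 0.0364, edgeR), 1.31 ± 0.33 for *Dusp1* (0.0205) and 1.25 ± 0.34 for *Klf2* (0.0362). *Ier2* had 0.96. The gene that was lower was *Btg1*, which restrains cell division, with 2.66, 4.00, 1.53, 0.82 and 3.00 at the base and 2.42 to 6.49 at the middle. Its log2 fold change was -1.82 ± 0.32 (adjusted p = 0.000641, edgeR), lower in 5 of 5 plates. These 4 higher calls rested on few plates. The number was 0 without plate colon_073s, without plate colon_682s, without the PdgfrbGFP or Acta2GFP line, over line sums or without the plate block, 1 without plate colon_513s, 2 without plate colon_075s or the PdgfraGFP line, and 8 without plate colon_686s. *Btg1* was also called over line sums, but not without the PdgfrbGFP line.

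The third comparison set all fibroblast clusters against all mural clusters. In this contrast 7 of the 40 genes were lower in fibroblasts (4.09% of all genes were) and 2 were higher (4.58% were). Over line sums 6 of these 9 calls were made. Without the Acta2GFP line 4 were lower and 0 higher, and without PdgfrbGFP 3 were lower and 1 higher. The number higher was 1 without plate colon_513s, 4 without plate colon_516s (the Cspg4dsRED line) and 5 without PdgfraGFP.

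*Atf3* had the largest difference. Its level was 7.33 in plate colon_513s, 7.54 in colon_516s, 8.76 in colon_682s, 6.13 in colon_685s and 6.01 in colon_686s in vascular SMC, but 2.75 to 3.37 in pericytes and 3.62 and 4.71 in interstitial SMC. In fibroblasts it stayed at or below 4.19 in all plates other than colon_075s, where it reached 7.52 in the apex cluster. So the difference lay with vascular SMC more than with mural cells as a whole. The log2 fold change of *Atf3* was -2.92 ± 0.51 (adjusted p = 0.000217, edgeR), lower in fibroblasts in 5 of 5 plates.

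*Btg2*, an antiproliferative p53 target, had 7.68, 9.10, 9.86, 7.69 and 7.43 in vascular SMC of plates colon_513s, colon_516s, colon_682s, colon_685s and colon_686s. Pericytes had 4.06 to 4.62 and crypt middle fibroblasts 1.49 to 6.89. *Zfp36* had 9.19, 8.63, 9.76, 8.40 and 9.04 in the same vascular SMC and 2.75 to 7.42 in crypt middle fibroblasts. Apex fibroblasts reached 9.17 for *Zfp36* and 8.90 for *Btg2*, within the range of vascular SMC, and pericytes had 4.72 to 6.18 for *Zfp36*, within that of crypt middle fibroblasts, so fibroblasts and mural cells overlapped as a whole. The log2 fold changes were -1.95 ± 0.35 for *Btg2* (adjusted p = 0.000354, edgeR) and -1.88 ± 0.37 for *Zfp36* (0.000946). *Fosb* (-1.65), *Socs3* (-1.44), *Fos* (-1.04) and *Btg1* (-1.003) were also lower in fibroblasts.

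Higher in fibroblasts were *Zfp36l2*, at 1.71 ± 0.42 (adjusted p = 0.00724, edgeR), and *Ier2*, at 0.87 ± 0.21 (adjusted p = 0.006, edgeR). *Zfp36l2* had 0.64, 1.78, 2.57, 1.39 and 1.29 in vascular SMC, 1.30 to 1.81 in pericytes and 0.99 and 2.90 in interstitial SMC. All 8 plates of cluster 5 lay above these, from 3.30 to 5.41, but apex fibroblasts (0.88 to 3.74) and cluster 6 (2.49 and 2.75) overlapped the mural range. *Ier2*, a nuclear regulator of unsettled mechanism, had 4.83, 7.32, 7.31, 6.21 and 6.80 in vascular SMC of plates colon_513s, colon_516s, colon_682s, colon_685s and colon_686s, where cluster 5 had 6.34, 8.16, 9.0, 6.60 and 6.01. The order of the clusters was thus reversed in plate colon_686s for this pair.

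The fourth comparison was that of pericytes, which wrap capillaries, with vascular SMC, which wrap larger vessels. None of the 40 genes was higher in pericytes by edgeR, where 2.74% of all genes were, although 3 were at an unadjusted p under 0.05, DESeq2 called 1, limma 0, and edgeR 1 without plate colon_682s. By contrast 14 were lower, against 0.851% of all genes. The median log2 fold change was -2.04 over the 40 genes and 0.24 over all genes. Plates colon_516s, colon_685s and colon_686s held both cell types. Over all plates, pericytes also had a lower median depth than vascular SMC (209805 and 359677 counts) and fewer genes per cell (4422 and 5371). Their summed means of endothelial (35.01 and 7.09 per 500000) and fibroblast markers (1485 and 285.5) were higher. The part of depth, genes per cell and markers was not tested.

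*Nr4a2* had 1.54, 0.40 and 0.28 in pericytes and 4.55, 0.94 and 2.21 in vascular SMC of these plates, so the gap was narrow in plate colon_685s. *Nfkbiz* had 1.42, 1.01 and 1.19 in pericytes and 4.76, 3.38 and 3.56 in vascular SMC. *Fosb* had 1.36, 0.70 and 1.34 in pericytes and 6.13, 4.23 and 3.87 in vascular SMC. For *Nfkbiz* and *Fosb* the groups did not overlap. The log2 fold changes were -6.97 ± 1.63 for *Nr4a2* (adjusted p = 0.0111, edgeR), -3.94 ± 1.09 for *Nfkbiz* (0.0393) and -3.69 ± 0.79 for *Fosb* (0.00524). Of 22 alternatives, 13 lost the call of *Nfkbiz*, 6 that of *Nr4a2* and 3 that of *Fosb*.

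The other lower genes in pericytes were *Nr4a1* (-3.68), *Atf3* (-3.45), *Fosl2* (-2.85), *Klf2* (-2.82), *Fos* (-2.26), *Egr1* (-2.16), *Junb* (-1.98) and *Jun* (-1.45), with the growth-restraining genes *Tob1* (-3.65) and *Btg2* (-2.68), and *Ier2* (-2.02). *Dusp6*, a phosphatase of ERK, had 2.42 and *Zfp36l2* 1.37, and neither passed the test. Over line sums 10 of the 14 calls were made. Pericytes were measured on PdgfrbGFP and Cspg4dsRED plates, and without the PdgfrbGFP line 1 call was left, while without the plate block 4 were. DESeq2 called 24 and limma 27 as lower.

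The fifth comparison set interstitial SMC, which lie outside vessels, against vascular SMC. It rests on plates colon_513s and colon_682s, both of the Acta2GFP line. Over all plates, interstitial SMC had a median of 118252 counts and 3720 genes per cell, against 359677 and 5371 in vascular SMC. These medians include vascular SMC of plates outside this comparison. In colon_513s, 40 interstitial SMC summed to 4855388 counts and 11 vascular SMC to 1243392, so the gap in depth was not seen there. In colon_682s, 12 interstitial SMC summed to 2531867 and 18 vascular SMC to 6459153. Fibroblast markers stood at 1080 against 285.5 per 500000 over all plates. The part of depth, genes per cell and markers was not tested. By edgeR 0 of the 40 genes were higher, at an unadjusted p under 0.05 too and by DESeq2 and limma (2.54% of all genes were higher), and 3 were lower (1.06% were). *Klf2* had 1.28 and 1.88 in interstitial SMC and 6.25 and 5.80 in vascular SMC of the same plates, and vascular SMC of plates colon_516s, colon_685s and colon_686s had 6.03, 7.64 and 7.30. Its log2 fold change was -4.93 ± 0.66 (adjusted p = 1.41e-05, edgeR), and it was the single call also made over line sums, where interstitial SMC are 1 sample assumed to vary like the other groups, so that fit holds no replicate of them. *Cebpd*, a C/EBP factor of inflammation, had 2.97 and 5.72 against 5.54 and 7.74, and *Rhob*, a small GTPase of the endosome and cytoskeleton, had 3.68 and 3.89 against 6.60 and 6.38. The log2 fold changes were -1.90 ± 0.54 for *Cebpd* (adjusted p = 0.0453, edgeR) and -1.55 ± 0.41 for *Rhob* (0.029). *Fos* and *Fosb* had -0.19 and 0.45, and their levels in interstitial SMC, 10.46 and 8.85 for *Fos* and 5.74 and 4.79 for *Fosb*, stood beside 9.99 and 11.11 and 5.46 and 5.33 in vascular SMC. DESeq2 called 10 genes as lower here and limma 11, and edgeR called 1 without plate colon_682s and 5 without the PdgfraGFP line.

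Plates of the same line could differ as much as cell types. Plates colon_073s and colon_075s are both PdgfrbGFP, and clusters 1, 2, 5 and 7 had at least 10 cells in each. With 1 plate on each side there is no test, so genes were counted whose mean difference over the 4 clusters was at least 1 on the log2 scale, with the same sign in each. By this rule 35 of the 40 genes were higher in colon_075s, against 4.31% of 18808 genes, and 0 were lower, against 0.601%. Plate colon_075s had been singled out beforehand, and the 40 genes were chosen with earlier results of these data known. The count is therefore a description of the shift and no independent support for it. The mean level over the 40 genes was 5.42, 6.84, 5.89 and 5.60 in clusters 1, 2, 5 and 7 of plate colon_075s and 3.09, 3.88, 3.83 and 3.77 in plate colon_073s. The mean difference was 2.29 ± 0.49 (SD over the 4 clusters), while the median difference over all genes was 0.06. With a pseudocount of 10 the mean difference was 1.497.

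The 5 largest differences belonged to *Fosb*, *Nr4a1*, *Atf3*, *Btg2* and *Ier3*. *Fosb* was higher in colon_075s by 4.57, 4.46, 4.45 and 4.56 in clusters 1, 2, 5 and 7, a mean of 4.51 that hardly varied with the cell type. *Nr4a1* differed by 3.86, 5.66, 3.87 and 4.51, and its mean level was 5.09 in colon_073s and 9.56 in colon_075s. *Atf3* differed by 4.17, 5.70, 3.78 and 3.87, *Btg2* by 4.04, 4.653, 3.40 and 4.02, and *Ier3*, a survival-related early response gene, by 3.88, 4.53, 3.80 and 2.77. The genes below the rule were *Btg1* (0.91), *Zfp36l2* (0.87), *Zfp36l1* (0.48), *Egr3* (0.24) and *Maff* (0.09). *Maff* was the only gene of the 40 that was not higher in all 4 clusters.

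**Figure D4:**
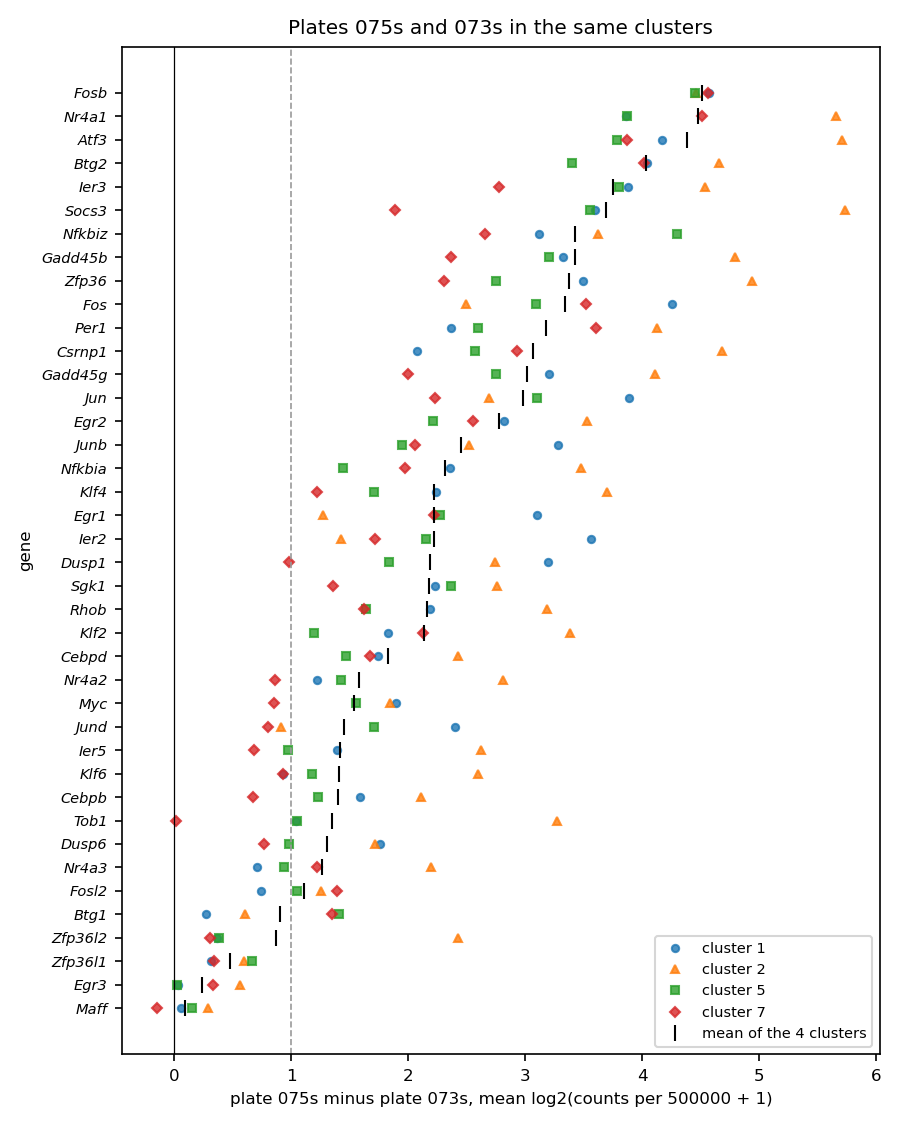
Difference in mean log2(counts per 500000 + 1) between plates colon_075s and colon_073s (x axis) for the 40 genes (y axis), in each of 4 clusters (symbols) and as their mean (black tick). The dashed line marks a difference of 1. The means of 35 genes lie to its right, with *Fosb* at 4.51 highest and *Maff* at 0.09 lowest.

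The shift reached the individual cells of plate colon_075s. In crypt middle fibroblasts the level of *Fos* was 3.86 at the 10th percentile, 5.49 at the median and 8.86 at the 90th percentile of the cells in colon_073s, but 8.83, 10.3 and 11.4 of those in colon_075s. In cluster 5 it was 4.32, 8.02 and 10.0 of the cells in colon_073s and 9.77, 10.8 and 11.4 of those in colon_075s. The 10th percentile in colon_075s thus stood near the 90th in colon_073s. Plate colon_075s was also highest in each of clusters 1, 2, 5 and 7 when set beside all plates. The next highest plate was colon_686s in cluster 1 (4.08), colon_513s in cluster 2 (4.90), colon_682s and colon_516s in cluster 5 (4.42 and 4.43) and colon_682s in cluster 7 (4.12).

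Other measures moved with plate colon_075s. Its median depth, 288507 counts, was close to the 290372 of colon_073s, but a median of 8112 genes were detected per cell against 7053. Endothelial markers (*Pecam1*, *Cdh5*, *Kdr*, *Tie1*), which a CD31-negative sort should lack, had a count in 100% of cells of colon_075s and 15.5% of colon_073s, with summed means of 33.996 and 0.382 per 500000. The share of cells was 48.7% in colon_682s and 87.9 to 98.6% in the remaining plates. By this share colon_073s and colon_682s stood apart, and colon_075s did not. *Pecam1* alone was seen in 99.6% of cells of colon_075s, *Kdr* in 87.2% and *Tie1* in 85.3%, at means of 21.4, 5.44 and 6.31, but *Cdh5* in 38.4%, at a mean of 0.899. The part of these in the difference was not tested. Over the 9 plates this summed mean ran from 0.382 to 34.6, the latter in colon_516s, where the median over cells was 8.40 and 90.1% of cells had a count, against a median of 26.6 in colon_075s. Plate colon_513s, which had the lowest mean over the 40 genes in cluster 1 (2.37), had 14.5, in 96.9% of cells. Summed means in colon_075s and colon_073s were 4.46 and 4.66 for immune markers, 8.08 and 35.1 for epithelial markers and 10.4 and 0.882 for markers of glia and Cajal cells.

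An additive description with plate and cluster parted both sources over the 38 combinations. For the mean over the 40 genes, plate added 47.5% of the sum of squares when entered last, cluster added 41.1%, and 6.46% was left. Without plate colon_075s the plate share was 14.3% and the cluster share 68.9%, and leaving out any other plate kept the plate share between 46.9 and 51.2%. Cluster terms spanned 2.02 on the log2 scale with all plates and 2.02 without colon_075s, with pericytes lowest in both. Of the 40 genes, 22 had the larger share for cluster and 18 for plate, and without colon_075s these numbers were 31 and 9. They were 17 and 23 without colon_513s and 19 and 21 without colon_516s or colon_682s, so which source had more genes depended on single plates. The highest cluster term of the mean was that of vascular SMC, but that of apex fibroblasts without colon_073s, colon_075s, colon_513s or colon_682s.

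Genes fell along a range between both. *Zfp36l2* had the largest share for cluster (67.4%, with 8.83% for plate), followed by *Gadd45g* (62.8% for cluster and 25.1% for plate), *Fosb* (59.2 and 27.98%), *Junb* (57.2 and 25.5%) and *Btg2* (57.2 and 35.97%). *Cebpd* had the largest share for plate (56.6%, with 11.3% for cluster), followed by *Myc* (52.03% for plate and 17.2% for cluster), *Csrnp1* (51.5 and 33.9%), *Klf6* (49.3 and 13.3%) and *Egr2* (49.2 and 29.6%). The plate order was not shared by all. Plate colon_075s had the highest plate term for 31 of the 40 genes, while *Cebpd* was highest in colon_685s, at 9.51 in crypt middle fibroblasts against 8.61 in colon_075s and 2.38 in colon_1075s. *Jund*, *Maff*, *Btg1* and *Rhob* had their highest plate term in colon_686s, *Nr4a2* and *Tob1* in colon_516s, *Nr4a3* in colon_685s and *Zfp36l1* in colon_439s. The highest cluster term was that of vascular SMC for 16 genes and that of apex fibroblasts for 16, and the lowest was that of pericytes for 15.

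**Figure D5:**
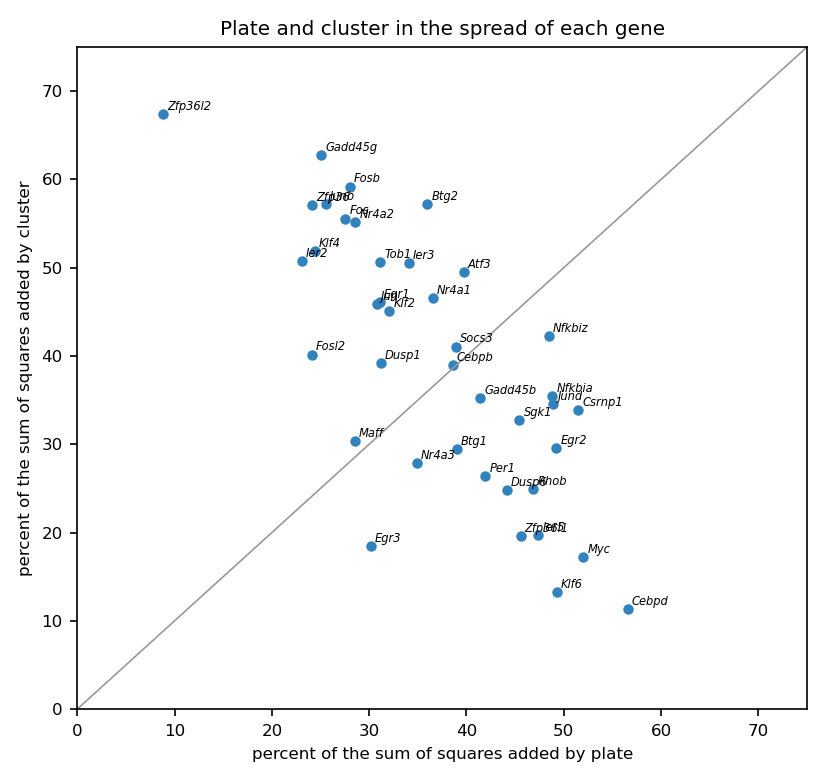
Percent of the sum of squares over 38 plate and cluster combinations that plate (x axis) and cluster (y axis) each add when entered last, 1 point per gene. Points above the grey line (equal shares) number 22, with *Zfp36l2* farthest towards cluster, and *Cebpd* lies farthest towards plate.

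Within a plate and cluster the genes also varied together from cell to cell. This was described over 25 combinations with at least 20 cells, by Pearson's r of each gene with the mean of the other 39 over cells of the same plate and cluster (11 combinations for *Egr3*). The median r was highest for *Egr1* (0.65), *Fos* (0.62), *Junb* (0.59), *Zfp36* (0.55) and *Ier2* (0.53), and lowest for *Zfp36l2* (0.04), *Egr3* (0.06) and *Tob1* (0.07). The r of *Fos* with *Junb* had a median of 0.55 and a range of 0.26 to 0.78. The mean over the 40 genes had a median r of 0.0012 with log2 depth, in a range of -0.38 to 0.57. Over the 38 means *Zfp36l2* was the single gene with a negative r with the other 39 (-0.09). *Fos* was seen in nearly every cell, with no count in 10 of 87 crypt middle fibroblasts of plate colon_513s at most, and its 10th and 90th percentiles in a combination lay 1.63 to 9.30 apart with a median gap of 5.35.

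Genes outside the set were compared with the mean over the 40 genes across the same 38 means. Among 2060 genes with a mean level of at least 3, the most alike were *Ppp1r15a* (r = 0.83), a stress-induced phosphatase subunit, *Junos* (0.81), *Ifrd1* (0.80) and *Dnajb1* (0.75), a co-chaperone of Hsp70. *Junos* is annotated antisense to *Jun* and overlaps it, and since no source says that reads were counted by strand, reads of the pair cannot be told apart. *Jund*, *Junb*, *Atf3*, *Cebpb*, *Cebpd*, *Csrnp1*, *Dusp1* and *Zfp36l1* also overlap another annotated gene, and their counts are uncertain to that degree.

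Other inducible genes formed a list of 39, of which 38 passed the filter. At the apex 12 were higher and 2 lower (4.71 and 4.08% of all genes were), led by *Arc* (7.48), *Plk2* (7.02) and *Ptgs2* (5.97, which also served as an apex marker) in log2 fold change. Pericytes differed from vascular SMC in 4 higher, with *Tnfaip3* (6.11) and *Klf10* (5.06), and 2 lower, with *Rgs2* (-3.20), by edgeR (2.74 and 0.851% of all genes), but limma called 1 higher and 7 lower and DESeq2 6 higher and 8 lower, and the median over the list was -0.78. At the crypt base 1 was higher and 6 were lower (1.08 and 1.77% of all genes), among them *Id1* (-3.98), *Rgs2* (-3.53) and *Id3* (-2.41), of which *Id1* and *Id3* are BMP targets and *Rgs2* restrains G protein signals. In fibroblasts against mural cells 5 were higher and 6 lower (4.58 and 4.09% of all genes), and *Dusp4* (-5.94) and *Dusp5* (-5.77) were among the lower. By edgeR interstitial SMC had *Klf10* higher (4.09) and *Ccn2* lower (-2.34), 1 of 38 each and near the 2.54 and 1.06% of all genes, while limma called 1 higher and 6 lower and DESeq2 2 higher and 7 lower. In fibroblasts limma called 8 higher and 4 lower, so that the direction with more calls differed between tools, and at the crypt base it called 2 in each direction. In plate colon_075s 17 of 38 were past the fold rule and higher (4.31% of all genes were), led by *Plk2* (4.03), *Arc* (3.52) and *Ccn1* (3.05).

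Genes that act upstream of the set, 20 kinases and transcription factors such as *Srf* and *Creb1*, gave few calls by edgeR. At the apex edgeR called 0 of 20 (4.71% of all genes were higher and 4.08% lower), with 1 at an unadjusted p under 0.05, 1 called by DESeq2 and 0 by limma. Between pericytes and vascular SMC edgeR also called 0 (2.74% of all genes were higher and 0.851% lower), with 3 at an unadjusted p under 0.05, 0 called by DESeq2 and 2 by limma. *Mapk3* (ERK1) was higher in fibroblasts than in mural cells (0.99), 1 of 20 and near the 4.58% of all genes. There DESeq2 called 2 higher and 1 lower, and limma 4 higher and 0 lower. *Mapk3* was lower in interstitial than in vascular SMC (-1.96), 1 of 20 where 1.06% of all genes were. In that comparison DESeq2 called 1 higher and 1 lower, and limma 0 higher and 2 lower. In plate colon_075s *Nfkb1* (1.31) and *Elk1* (1.03), 2 of 20, were past the fold rule and higher (4.31% of all genes were). Heat shock genes, 12 in all, were higher at the apex in 9 cases (4.71% of all genes were), among them *Hspb1* (3.29), *Dnajb1* (2.79) and *Hsp90aa1* (2.04), and 5 of 12 were past the fold rule in colon_075s (4.31% of all genes), led by *Dnajb1* (3.17), *Hspa1a* (3.09) and *Hspb1* (2.92). In fibroblasts against mural cells edgeR called 1 of the 12 heat shock genes higher and 3 lower (4.58 and 4.09% of all genes). There DESeq2 called 1 higher and 5 lower, and limma 1 higher and 1 lower. Between pericytes and vascular SMC edgeR called 0 of 12 (2.74% of all genes were higher and 0.851% lower). In that comparison 0 had an unadjusted p under 0.05, DESeq2 called 0 and limma 1. Of the 40 immediate early genes 14 were lower in pericytes, and the difference between both lists was not tested.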

How the data were processed

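Single cells of the colon were sorted into 384-well plates, 1 library per well, and sequenced as 50-base single reads. Counts per gene and cell are the values the authors deposited. They aligned reads to GRCm38, counted them with featureCounts and kept cells by their own filters. SmartSeq2 carries no molecular identifiers. The study's methods name a removal of doublets with samtools between alignment and counting, which may mean duplicate reads. No gene in any cell exceeded 2.2 counts per exonic base (1.33 among the 40 genes, for *Fos*), and a removal of duplicates would cap high levels. The use of strand in counting is not given in the sources used here. The 92 ERCC spike-in rows (1.36% of counts) stayed out of library sizes and tests. Counts per cell had a median of 248628, and 46005 of 46517 identifiers matched a GENCODE vM21 symbol. Clusters, lines and plates were taken from the labels. No doublet caller was run here.

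Counts were summed per plate and cluster with at least 10 cells (38 sums of 1243392 to 40472113 counts, 22 residual degrees of freedom, common dispersion 0.944). They were tested with edgeR 4.0.16 (quasi-likelihood, TMM, plate as a block, filter on low counts, 18808 genes kept). The p-values were adjusted by Benjamini-Hochberg, and calls made below 0.05. Fitted fold changes come from these sums, whereas levels are means over cells of log2(counts per 500000 + 1), with a pseudocount of 1 that understates differences of low genes. The plate pairs the sums, as deviations from cluster means correlated in 65 pairs of the same plate (r 0.10 to 0.77, median 0.34), against a median of -0.01 in 117 pairs of the same line on other plates. Alternatives were DESeq2 1.42.0, limma 3.58.1 on mean levels, other size factors, no filter, no block, line sums, other minimum cell numbers, other pseudocounts and leaving out each plate or line. On simulated data for the apex comparison, 55 of 200 genes changed by 2 on the log2 scale were recovered with 3 false calls, and 1 of 200 changed by 1 with 0 false calls, so many smaller differences would be missed. R 4.3.3, Python 3.11.15, numpy 2.4.6, pandas 2.3.3 and matplotlib 3.10.9 were used.

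The 40 genes and the other lists were chosen with earlier results of these data known. Every gene of the 40 called in a comparison is named, the 3 with the largest fold change in each direction get their values by plate, and of the other lists at most the 3 largest are named. Promoters came from RefSeq. Some items are not reported here.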

Additional observations from a re-analysis of the deposited data

Results flagged for a closer look

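In 46 sets of 4 to 10 plates, the highest or lowest value was compared with its nearest neighbour by Dixon's criterion, and 9 passed, where chance gives about 1 in 20. The sets share plates and hold genes that were picked for large differences, so they are not independent and the number is a description. Of these, 7 were values of plate colon_075s, which had been singled out beforehand. The mean over the 40 genes in cluster 5 was 5.89 there. The level of *Fosb* was 6.24, 6.90 and 6.40 in the crypt middle, base to middle and base clusters. Crypt middle cells of that plate had further values past the criterion, and *Nr4a1* had 8.51, *Atf3* 5.61 and *Ier3* 5.27. The other cases were single differences within a plate. *Nfkbiz* was higher at the apex by 2.39 in plate colon_1075s, where the other 4 plates had 1.36 to 1.63, but colon_1075s was set against cluster 1 alone and the others against the mean of clusters 1, 5 and 7. The difference of *Btg2* between fibroblasts and mural cells was -1.47 in plate colon_516s, where cluster 5 is the only fibroblast cluster, so it too is not like those of the other plates. The endothelial marker counts of plate colon_075s stand beside its values in the report, and their part was not tested.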

How the results depend on the processing

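No call of a named gene reversed. Of 54 calls, 17 were made under every alternative run and 37 were lost under at least 1. DESeq2 made all 54, limma 52 and edgeR without the plate as a replicate block 32, and 48 were made without plate colon_075s. Numbers higher at the crypt base (4) were 7 by DESeq2, 2 without the filter, 1 with sums of at least 3 cells, 0 without the replicate block and 0 over line sums with or without a block. Numbers lower there (1) were 3 by DESeq2, 2 by limma, 2 with at least 20 cells and 0 over line sums without a block. At the apex limma called 2 as lower. Fibroblasts against mural cells gave 4 higher by DESeq2, 4 without the replicate block, 1 over line sums with the line as a block and 8 by limma, and 12 lower with at least 3 cells. Pericytes gave 1 higher by DESeq2 and 1 with at least 20 cells, and 24 lower by DESeq2, 27 by limma, 22 with at least 20 cells, 4 without the plate block and 8 over line sums without a block. Interstitial SMC gave 10 lower by DESeq2, 11 by limma, 1 with at least 3 cells, and 1 and 0 over line sums with and without a block. The causes were not tested.

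The mean difference over the 40 genes between interstitial and vascular SMC, -1.50, was -1.89 with a pseudocount of 0.1, -1.05 with 10 and -1.13 from logs of means, and that between plates colon_075s and colon_073s, 2.29, was 2.98, 1.497 and 1.59. Leaving out each plate or line gave 15 to 24 higher and 1 to 2 lower at the apex, 0 to 8 and 0 to 2 at the crypt base, 0 to 5 and 3 to 9 in fibroblasts, 0 to 1 and 1 to 18 in pericytes, 0 to 0 and 1 to 5 in interstitial SMC, and 26 to 33 among the 8 clusters. The mean differences then ran from 1.23 to 1.68 at the apex, 0.413 to 0.538 at the crypt base, -0.415 to -0.116 in fibroblasts, -1.97 to -1.54 in pericytes and -1.56 to -1.43 in interstitial SMC. Leaving out each plate, an alternative chosen after seeing the data for the shares, gave 14.3 to 51.2% for plate and 35.97 to 68.9% for cluster. With at least 20 cells, 3 tests could not be fitted, those of fibroblasts against mural cells, of interstitial SMC and among the 8 clusters, and the interstitial comparison could not be fitted without Acta2GFP.

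P-values measure how far differences between clusters vary from plate to plate, since the plate block takes up the spread between plates. The labels name no mouse. Plate, line and digestion cannot be told apart where a line has 1 plate. Low levels, such as those of *Nr4a2* in crypt middle fibroblasts, rest on few counts per cell.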
